A study of Mus musculus with 3 samples.

Results

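Collagens are secreted proteins whose chains wind in threes into a triple helix, and the genes that encode these chains were followed across 3 Affymetrix mouse arrays. The family was taken as every probe set with a single gene symbol made of Col, a number, the letter a and a number, which gave 42 genes and 82 probe sets out of 18194 genes and 34958 probe sets with 1 symbol. By class the family held 11 fibrillar genes, 6 genes of type IV (basement membrane), 9 fibril-associated genes, 5 genes of type VI and 11 others. The arrays came from 3 lines of C2C12, a mouse myoblast line that fuses into myotubes in culture. Each line carried a hairpin for RNA interference with 1 gene (FoxO1, FoxO3 or FoxO4), forkhead transcription factors that insulin signalling keeps out of the nucleus. All 3 lines were kept in DMEM with puromycin, and each was a colony chosen because its intended FoxO gene was best depleted, so hairpin and colony cannot be told apart. There was 1 array per line, with no replicates, so no test, p-value or standard error can be given for any difference, and every count below is a count by size.

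The number on the array is the GCOS signal, a brightness per probe set that the authors scaled to a 2% trimmed mean of 1000 per array. Signals below the 20th percentile of an array were set to that percentile (the floor), which was 81.2 on the FoxO1-labelled array, 73.1 on the FoxO3-labelled array and 77.3 on the FoxO4-labelled array. A gene's value is the median log2 signal over its probe sets, and a difference of 1 on this scale is 2-fold. The control RNAi line enters through the authors' deposited table, which gives a log2 ratio for the FoxO1-labelled array. Subtracting that ratio from the log2 signal of the same array gave an implied control signal, which is not a measured array. Its use for the FoxO3- and FoxO4-labelled arrays was an addition made once values had been seen. The targeted genes did not all follow the labels: the 4 Foxo1 probe sets read 1378, 2778, 2221 and 106 on the FoxO1-labelled array, against 560, 1209, 684 and 121 in the implied control. The library labelled FoxO1 therefore went against its label at Foxo1, and each direction below belongs to an array by its label, not to a known depletion. Foxo3 differed by 0.03 (log2) on the FoxO3-labelled array and Foxo4 by -0.63 on the FoxO4-labelled array, both against the implied control. The Foxo3 value joins probe sets at 1573, 1047 and 82.0 on the FoxO3-labelled array, against 1570, 1029 and 747 in the implied control. On the FoxO4-labelled array Foxo3 differed by -1.42 from that control. The FoxO3-labelled array differed from it by -0.69 at Foxo4 and by -0.32 at Foxo1, so the Foxo4 value was not particular to its label. The Foxo4 value joins probe sets that went opposite ways, at 763 and 80.4 on the FoxO4-labelled array, against 87.6 and 1678 in the implied control. The 3' to 5' signal ratio of Actb was 6.31, 5.50 and 3.45 on the FoxO1-, FoxO3- and FoxO4-labelled arrays, against 2.56 in the implied control. That of Gapdh was 5.0, 5.90 and 2.23, against 2.68, and the part of RNA quality in the results was not tested.

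Fibrillar collagens (types I, II, III, V, XI, XXIV and XXVII) form the ropes of connective tissue, and type I and type III are the main ones of the sheath around muscle fibres. Type IV chains build the sheet-like network of the basement membrane that surrounds each muscle fibre. Type VI forms beaded filaments between that membrane and the fibrils, and loss of any of its main chains causes muscle disease in humans. Fibril-associated collagens sit on the surface of fibrils, and the remaining genes encode short-chain, membrane-spanning, anchoring and basement membrane zone collagens. In muscle tissue much of this collagen is made by fibroblasts, while myoblasts in culture also make it.

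The 42 collagen genes were higher on the FoxO1-labelled array more often than genes in general. Against the FoxO3-labelled array, 20 of the 42 were at least 2-fold higher (47.6%) beside 21.3% of all genes, and 4 were at least 2-fold lower (9.52%) beside 17.4% of all genes. Over the FoxO4-labelled array, 15 were higher (35.7%) beside 20.4% of all genes and 3 were lower (7.14%) beside 16.9%. Between the FoxO3- and FoxO4-labelled arrays the shares were close to those of all genes. There, 7 collagen genes were higher on the FoxO3-labelled array (16.7%, against 17.9% of all genes) and 9 lower (21.4%, against 18.6%). The family's median difference was 0.91 (log2) for FoxO1 minus FoxO3, 0.34 for FoxO1 minus FoxO4, with -0.08 in FoxO3 minus FoxO4, beside medians of 0.14, 0.07 and -0.08 over all genes. Both values of -0.08, and the 0.07, are the differences between the floors of those arrays, so the match at -0.08 is set by the floor. With no floor the family's medians were 0.97, 0.60 and -0.05, beside 0.08, 0.07 and -0.03 over all genes. In bulk RNA, fewer cells of a type and less RNA per cell cannot be told apart.

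Against control RNAi the FoxO1-labelled array again held more collagen genes on the high side. In the authors' deposited table the log2 ratio, as a gene median, was at least 1 for 18 of the 42 genes (42.9%) beside 18.8% of all genes, and at most -1 for 5 (11.9%) beside 17.1%. In the authors' deposited table, 25 of the 82 collagen probe sets carried an increase call on that array and 0 a decrease call. By gene that was 16 of 42 with an increase call (38.1%), while 2.48% of all genes had one and 7.56% had a decrease call. All 16 were above the median of all genes on at least 1 array, and among the 12356 genes with that property 3.45% had an increase call. Relative to the implied control, the FoxO3-labelled array had 10 collagen genes at least 2-fold higher beside 17.3% of all genes, and 7 lower beside 18.6%. On the FoxO4-labelled array 12 were higher beside 17.8% of all genes and 8 lower beside 18.5%. All 3 comparisons share this control, so they are set side by side without a measure of overlap.

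**Figure D1:**
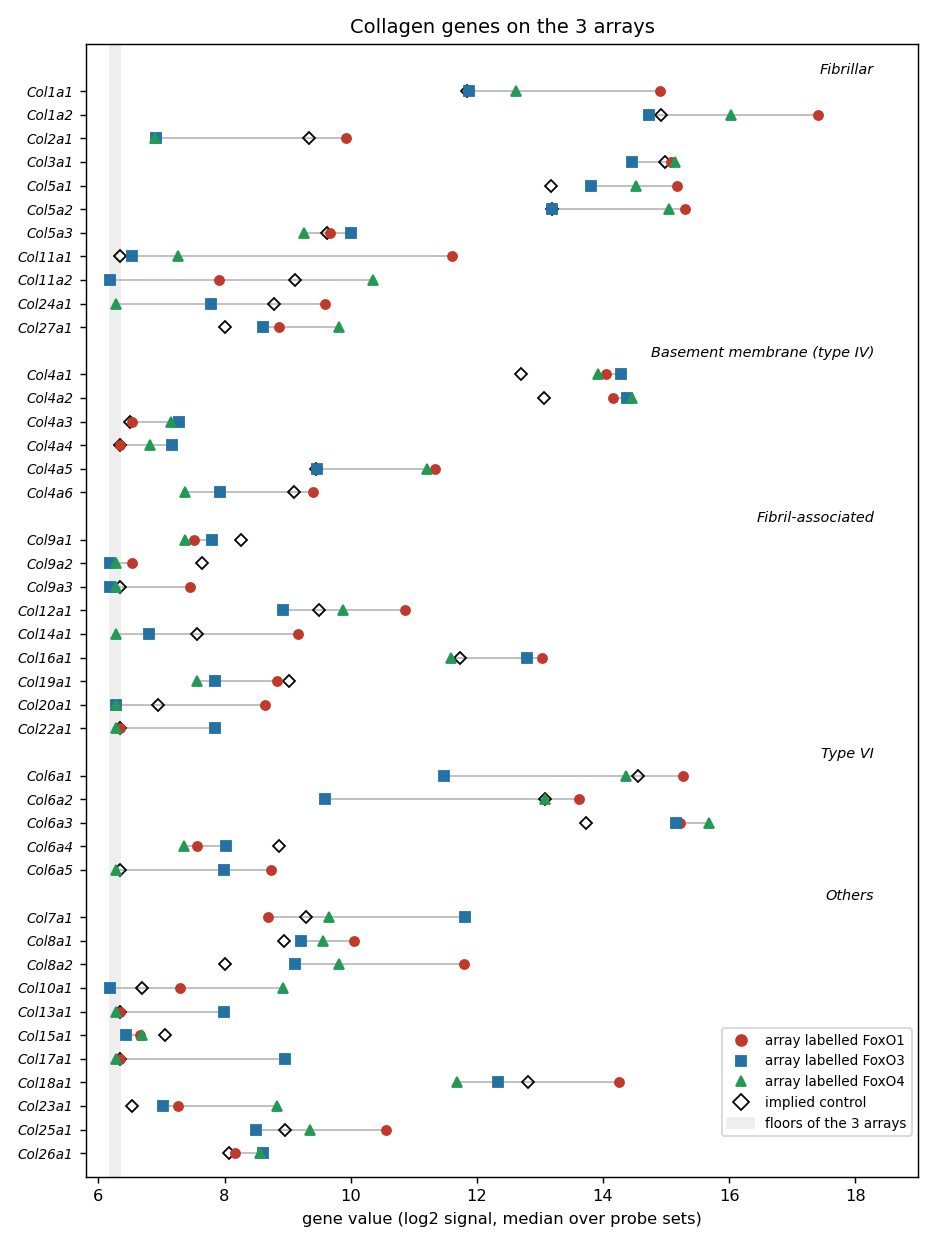
Gene values (log2 signal, horizontal axis) of the 42 collagen genes by class, on the FoxO1-, FoxO3- and FoxO4-labelled arrays and in the implied control, 1 value each; the line joins the lowest and highest array and the grey band holds the floors of the 3 arrays. Col1a1, Col1a2, Col11a1 and Col8a2 lie far to the right on the FoxO1-labelled array, Col6a1 and Col6a2 far to the left on the FoxO3-labelled array, and Col4a1 and Col4a2 close together on all 3.

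Type I collagen was higher on the FoxO1-labelled array than on both others. Its chains are encoded by Col1a1 and Col1a2, which are made together and assemble as 2 chains of the first to 1 of the second. The brighter Col1a1 probe set read 42337 on the FoxO1-labelled array, 8321 on the FoxO3-labelled array, 6319 on the FoxO4-labelled array and 7484 in the implied control. The dimmer one read 22046, 1706, 6326 and 1818 in the same order. Both put the FoxO1-labelled array highest, but they rank the other 2 arrays differently. As a gene value Col1a1 differed by 3.02 (log2) for FoxO1 minus FoxO3 and 2.27 for FoxO1 minus FoxO4. The brightest Col1a2 probe set read 269397 on the FoxO1-labelled array, 45753 on the FoxO3-labelled array, 131443 on the FoxO4-labelled array and 67349 in the implied control. Col1a2 differed by 2.68 and 1.39 in those pairs, and the difference of 1.39 became 0.69 with the mean over probe sets and 0.51 with plain probe sets (those with no letter suffix in their identifier). Between the other arrays Col1a2 differed by -1.29 for FoxO3 minus FoxO4, and Col1a1 by -0.75, under 2-fold. A dim Col1a2 probe set, at 365, 164 and 471, put the FoxO4-labelled array highest.

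Upstream sequence is shown for Col1a2 and for Col11a1, fibrillar genes with at least 2-fold differences between the FoxO1-labelled array and both others, from the RefSeq promoter table (GRCm38.p6). Each line gives the 250 bases before the annotated start, 5' to 3' on the strand of the gene, at chr6:4505368-4505617 (plus strand) and chr3:114030290-114030539 (plus strand). Capitals mark CCAAT and GGGCGG, the letters bound by NF-Y and by Sp1-type factors, on either strand.
Col1a2: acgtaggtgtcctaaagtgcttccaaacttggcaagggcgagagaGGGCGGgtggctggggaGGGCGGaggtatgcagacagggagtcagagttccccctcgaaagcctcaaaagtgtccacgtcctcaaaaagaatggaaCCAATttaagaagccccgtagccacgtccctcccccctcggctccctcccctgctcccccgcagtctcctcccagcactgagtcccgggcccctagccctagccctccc
Col11a1: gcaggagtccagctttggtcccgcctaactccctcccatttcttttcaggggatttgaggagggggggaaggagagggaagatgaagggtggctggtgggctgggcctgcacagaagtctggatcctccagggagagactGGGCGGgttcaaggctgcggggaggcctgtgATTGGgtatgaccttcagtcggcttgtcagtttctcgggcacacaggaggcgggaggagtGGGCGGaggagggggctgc
In Col1a2 the CCAAT lies 109 to 105 bases before the start and both GGGCGG lie further out, and in Col11a1 CCAAT lies on the opposite strand 79 to 75 bases before the start, between both GGGCGG.

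The promoter windows of 300 bases, which run past the start by 50, were searched for 4 sets of letters on both strands. Of the 42 genes, 33 had a window, 36 windows in all. GGGCGG was in 22 of the 36 (61.1%) and in 35.7% of all 32851 windows. CCAAT was in 13 (36.1%) and in 37.4% of all, and TATAAA in 5 (13.9%) and in 13.6% of all. GTAAACA, the core letters that FoxO factors bind, was in 1 collagen window (2.78%), that of Col6a1, and in 3.65% of all windows. A match describes these letters only, and the windows cover neither distant enhancers nor the first intron.

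Type XI chains sit inside the thin fibrils of cartilage, and Col11a1 had the widest spread of gene values over the 3 arrays in the family. The Col11a1 probe sets read 3237 and 2992 on the FoxO1-labelled array. They read 118 and 22.9 (below the floor) on the FoxO3-labelled array, 140 and 169 on the FoxO4-labelled array, and 54.2 and 57.6 in the implied control. By gene value it was above the median of all genes on the FoxO1-labelled array and below it on the others. Col11a1 differed by 5.07 (log2) for FoxO1 minus FoxO3 and 4.34 for FoxO1 minus FoxO4, and its probe sets lay between 4.15 and 5.35 in these pairs. Col11a2, the partner chain, went another way in its single probe set, with 241 on the FoxO1-labelled array, 47.8 on the FoxO3-labelled array, 1308 on the FoxO4-labelled array and 554 in the implied control. The signal on the FoxO3-labelled array was below the floor. Col2a1, the fibril chain of cartilage, read 977, 120 and 120 on the FoxO1-, FoxO3- and FoxO4-labelled arrays, and 644 in the implied control. It was thus low on the FoxO3- and FoxO4-labelled arrays, while on the FoxO1-labelled array its log2 ratio in the authors' deposited table was 0.60.

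Type V chains start fibrils and limit their width, and of the 3 arrays Col5a1 and Col5a2 were lowest on the FoxO3-labelled one. Col5a2 read 156228 with its brighter probe set on the FoxO1-labelled array, 37366 on the FoxO3-labelled array, 114112 on the FoxO4-labelled array and 31724 in the implied control. Its dimmer probe set read 10318, 2317, 10129 and 2765. Both probe sets thus separate the FoxO1- and FoxO4-labelled arrays from the FoxO3-labelled array and from the control. The Col5a2 difference was 2.11 (log2) for FoxO1 minus FoxO3 and -1.87 for FoxO3 minus FoxO4, against 0.24 for FoxO1 minus FoxO4. The brightest of the 3 probe sets of Col5a1 read 92647, 33461 and 58714 on the FoxO1-, FoxO3- and FoxO4-labelled arrays, and 14258 in the implied control. Its dimmest probe set, at 7118, 4436 and 8320, put the FoxO4-labelled array highest. Col5a1 differed by 1.35 for FoxO1 minus FoxO3 and by under 2-fold in the other pairs, at 0.65 and -0.71. Against the implied control Col5a1 was 2-fold or more higher on the FoxO4-labelled array (1.35) and 0.65 higher on the FoxO3-labelled array. Col5a3, another type V chain, stayed within 2-fold in every pair, between -0.34 and 0.75.

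Col3a1, the type III chain that is abundant in embryonic and healing tissue, stayed within 2-fold. Its brighter probe set read 126648 on the FoxO1-labelled array, 89221 on the FoxO3-labelled array, 115628 on the FoxO4-labelled array and 126648 in the implied control. No pair differed by 2-fold, with 0.62, -0.06 and -0.68 (log2) for FoxO1 minus FoxO3, FoxO1 minus FoxO4 and FoxO3 minus FoxO4. Col3a1 lies next to Col5a2 on chromosome 1 in the RefSeq gene table (GRCm38.p6), yet the difference between these neighbours was 1.49 for FoxO1 minus FoxO3, with Col5a2 the more different. Of the remaining fibrillar genes, Col24a1 read 769 on the FoxO1-labelled array, 221 on the FoxO3-labelled array, 56.6 (below the floor) on the FoxO4-labelled array and 442 in the implied control. The probe sets of Col27a1 went opposite ways between the FoxO1- and FoxO3-labelled arrays, at -1.46 and 1.95.

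As a class, 8 of the 11 fibrillar genes (72.7%) were at least 2-fold higher for FoxO1 minus FoxO3 and 0 lower, with a median of 1.80 (log2). The shares of all genes were 21.3% and 17.4%. In FoxO1 minus FoxO4, 5 were higher (45.5%, beside 20.4% of all genes) and 1, Col11a2, was lower (9.09%, beside 16.9%), with a median of 0.65. For FoxO3 minus FoxO4, 1 was higher (9.09%, beside 17.9% of all genes), Col24a1, which turned to -0.026 with the floor at the 40th percentile. There, 4 were lower (36.4%, beside 18.6%): Col1a2, Col5a2, Col11a2 and Col27a1. By the ratio in the authors' deposited table the FoxO1-labelled array had 5 fibrillar genes higher than control RNAi (45.5%, beside 18.8% of all genes) and 1 lower (9.09%, beside 17.1%). Relative to the implied control, the FoxO3-labelled array had 0 higher, beside 17.3% of all genes, and 2 lower (18.2%, beside 18.6%). The FoxO4-labelled array had 5 higher (45.5%, beside 17.8%) and 2 lower (18.2%, beside 18.5%).

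**Figure D2:**
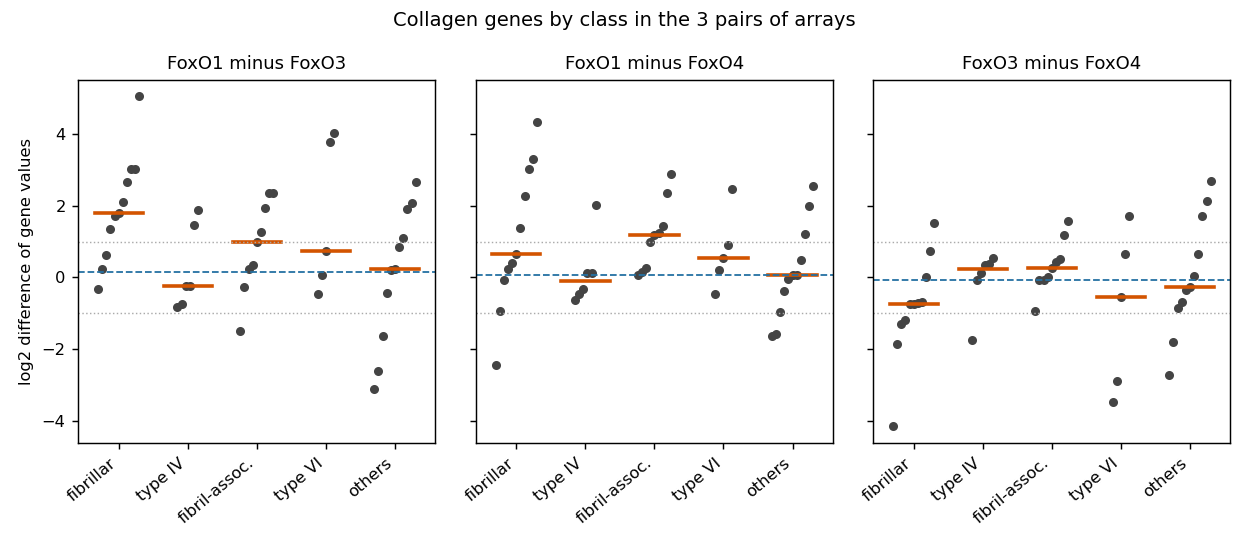
Log2 differences of gene values for FoxO1 minus FoxO3, FoxO1 minus FoxO4 and FoxO3 minus FoxO4, by collagen class; each point is 1 gene, the orange bar the class median, the dashed line the median of all genes and the dotted lines 2-fold. The fibrillar median is 1.80 for FoxO1 minus FoxO3, the type IV medians are -0.23, -0.09 and 0.24, and Col6a1 and Col6a2 stand apart at 3.79 and 4.03 for FoxO1 minus FoxO3.

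Type VI collagen split by chain. The molecule needs 1 chain each of Col6a1, Col6a2 and another, longer chain, most often Col6a3. Col6a1 read 39242 on the FoxO1-labelled array, 2840 on the FoxO3-labelled array, 21019 on the FoxO4-labelled array and 24156 in the implied control. Col6a2 read 18474, 272, 8870 and 10611 with one probe set and 8631, 2190, 8455 and 7010 with the other. Both genes were thus low on the FoxO3-labelled array alone. Col6a3 read 38361 on the FoxO1-labelled array, 36433 on the FoxO3-labelled array, 52748 on the FoxO4-labelled array and 13563 in the implied control, so it was not low on the FoxO3-labelled array. The differences for FoxO1 minus FoxO3 were 3.79 (log2) for Col6a1, 4.03 for Col6a2 and 0.07 for Col6a3. For FoxO3 minus FoxO4 they were -2.89, -3.49 and -0.53. For FoxO1 minus FoxO4 all 3 genes were within 2-fold, at 0.90, 0.54 and -0.46. The size for Col6a2 rests on the probe set used, since its probe sets gave 6.09 and 1.98 for FoxO1 minus FoxO3. The value of 1.98 comes from the probe set that is brightest by its mean log2 signal over the 3 arrays. Against the implied control, Col6a1 and Col6a2 lay at -3.09 and -3.48 on the FoxO3-labelled array, where Col6a3 lay at 1.43.

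Col6a1 and Col6a2 lie next to each other on chromosome 10, read from the same strand, and Col6a3 lies on chromosome 1. Their upstream sequences are shown because these neighbours were low together on 1 array while Col6a3 was not. Each line holds the 250 bases before the annotated start, 5' to 3' on the strand of the gene, at chr10:76726045-76726294, chr10:76623631-76623880 and chr1:90843972-90844221 (GRCm38.p6, minus strand for all). For Col6a2, which has a pair of annotated starts, the outer one was used. Capitals mark GTAAACA and GGGCGG on either strand.
Col6a1: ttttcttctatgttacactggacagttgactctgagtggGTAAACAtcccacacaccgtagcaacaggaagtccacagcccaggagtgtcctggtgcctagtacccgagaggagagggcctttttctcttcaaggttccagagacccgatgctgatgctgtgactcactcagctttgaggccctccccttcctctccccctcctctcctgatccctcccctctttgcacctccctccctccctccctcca
Col6a2: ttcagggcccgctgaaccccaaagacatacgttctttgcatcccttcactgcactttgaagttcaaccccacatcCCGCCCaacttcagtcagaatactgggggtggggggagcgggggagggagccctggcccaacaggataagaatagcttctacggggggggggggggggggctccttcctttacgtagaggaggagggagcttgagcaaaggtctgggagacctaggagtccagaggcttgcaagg
Col6a3: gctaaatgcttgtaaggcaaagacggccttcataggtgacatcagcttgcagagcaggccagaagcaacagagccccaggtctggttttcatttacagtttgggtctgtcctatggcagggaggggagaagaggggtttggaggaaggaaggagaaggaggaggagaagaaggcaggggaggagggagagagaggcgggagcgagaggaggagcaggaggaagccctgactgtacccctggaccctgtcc
GTAAACA was found in Col6a1 alone of the 3, 211 to 205 bases before its start, and GGGCGG in Col6a2 on the opposite strand.

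The remaining type VI genes were below the median of all genes on every array. Col6a4 had probe sets that went opposite ways in every pair, and Col6a5 read 425, 255 and 54.4 on the FoxO1-, FoxO3- and FoxO4-labelled arrays, the last below the floor. By count, 2 of the 5 type VI genes were at least 2-fold higher for FoxO1 minus FoxO3 (40%, beside 21.3% of all genes) and 0 lower, beside 17.4%. In FoxO1 minus FoxO4, 1 was higher (20%, beside 20.4%) and 0 lower, beside 16.9%. For FoxO3 minus FoxO4, 1 was higher (20%, beside 17.9%) and 2 lower (40%, beside 18.6%).

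The main chains of basement membrane collagen differed little between the 3 arrays. Col4a1 and Col4a2 encode the most widespread type IV molecule, with 2 chains of the first and 1 of the second. With its brighter probe set Col4a1 read 25538 on the FoxO1-labelled array, 28159 on the FoxO3-labelled array, 22534 on the FoxO4-labelled array and 8424 in the implied control. Col4a2 read 18257, 21373, 22635 and 8517. All 3 arrays lay close together and above the control in both genes. Across the pairs Col4a1 stayed between -0.23 and 0.35 (log2) and Col4a2 between -0.31 and -0.08, while against the control the 3 arrays lay between 1.23 and 1.58 for Col4a1 and between 1.10 and 1.41 for Col4a2. These genes are read in opposite directions on chromosome 8 from starts that are 21 bases apart in the RefSeq promoter table, at 11312826 on the minus strand for Col4a1 and 11312805 on the plus strand for Col4a2 (GRCm38.p6), so their promoter windows share 78 bases.

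Col4a5 and Col4a6 also lie head to head, with starts 1343 bases apart on the X chromosome. As gene values both were higher on the FoxO1- than on the FoxO3-labelled array, but they parted in the other pairs. Col4a5 read 2832 with its brighter probe set on the FoxO1-labelled array, 662 on the FoxO3-labelled array, 2803 on the FoxO4-labelled array and 616 in the implied control. Its other probe set read 2385, 758, 2006 and 787, so both set the FoxO3-labelled array and the control below the other arrays. Col4a6 read 1010, 815 and 358 on the FoxO1-, FoxO3- and FoxO4-labelled arrays and 820 in the implied control with its brighter probe set. In the dimmer probe set it read 457, 29.8 and 34.0, below the floor on the FoxO3- and FoxO4-labelled arrays. The difference for FoxO1 minus FoxO3 was 1.88 (log2) for Col4a5 and 1.48 for Col4a6, where the brightest Col4a6 probe set gave 0.31. For FoxO1 minus FoxO4 it was 0.13 for Col4a5 and 2.03 for Col4a6, and for FoxO3 minus FoxO4 -1.74 and 0.55. As gene values the kidney and lung chains Col4a3 and Col4a4 were near the floor, between 81.2 and 156 on all 3 arrays. Their probe sets disagreed on the order of the arrays, and single ones read higher. One reached 333 in Col4a3 on the FoxO3-labelled array, and another 467 in Col4a4 on the FoxO4-labelled array. Of the 6 type IV genes, 2 were at least 2-fold higher for FoxO1 minus FoxO3 (33.3%, beside 21.3% of all genes). For FoxO1 minus FoxO4 there was 1 (16.7%, beside 20.4%), with 0 in FoxO3 minus FoxO4, beside 17.9%. The counts lower were 0, 0 and 1 (16.7%), beside 17.4%, 16.9% and 18.6% of all genes.

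**Figure D3:**
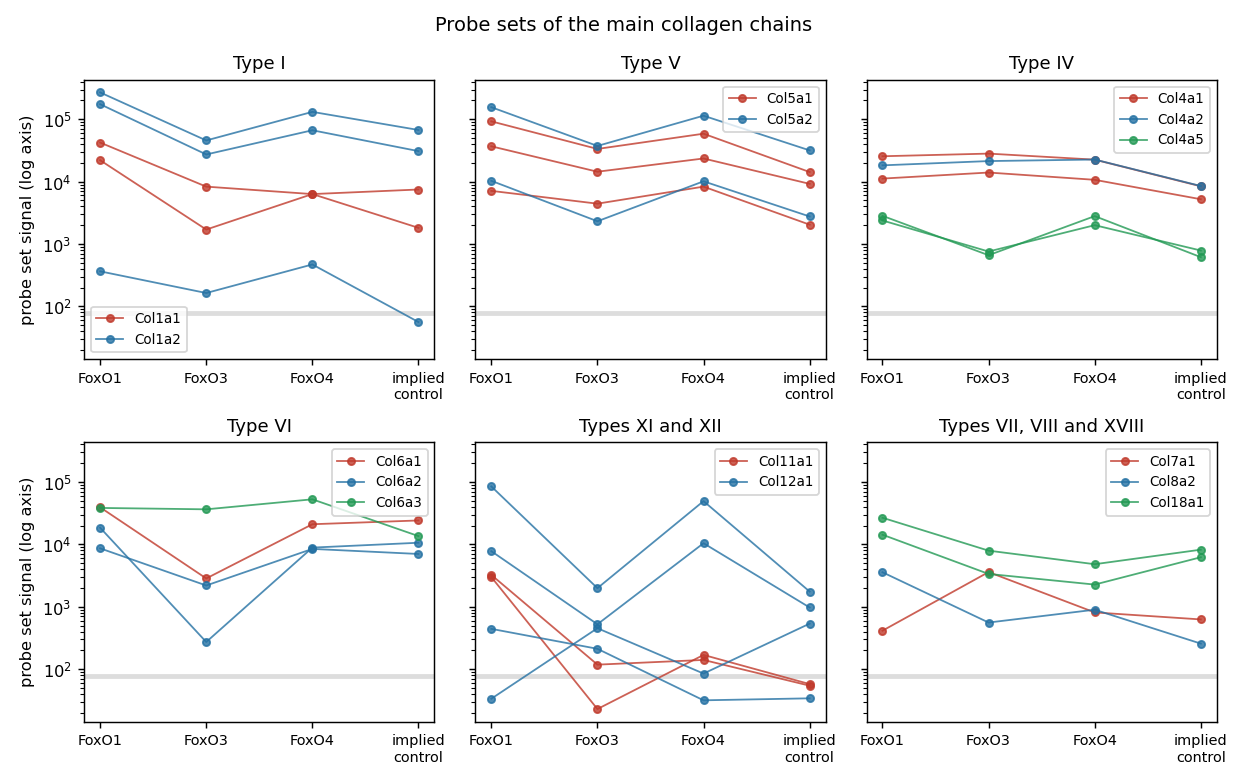
Signal of each probe set (vertical, log axis) on the FoxO1-, FoxO3- and FoxO4-labelled arrays and in the implied control, for chains of types I, V, IV, VI, XI, XII, VII, VIII and XVIII; each line is 1 probe set and the grey band holds the floors. Col4a1 and Col4a2 run level over the 3 arrays, Col6a1 and Col6a2 dip on the FoxO3-labelled array, and the bright and dim Col12a1 probe sets run apart.

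Among fibril-associated collagens, Col12a1, which binds type I fibrils in tendon and muscle fascia, had the largest difference of that class in a single probe set. Its brightest probe set read 84874 on the FoxO1-labelled array, 1985 on the FoxO3-labelled array, 49318 on the FoxO4-labelled array and 1750 in the implied control. The next read 7777, 523, 10424 and 972. These bright probe sets put the FoxO1- and FoxO4-labelled arrays far above the FoxO3-labelled array and the control, with 5.42 and 3.89 (log2) for FoxO1 minus FoxO3. The dim Col12a1 probe sets gave 1.06 and -2.48, from signals of 442 and 33.5 on the FoxO1-labelled array and 212 and 452 on the FoxO3-labelled array. The gene value, which takes the median log2 signal on each array first, differed by 1.93, less than either bright probe set. Col16a1, a fibril-associated chain of many tissues, read 8364 on the FoxO1-labelled array, 7107 on the FoxO3-labelled array, 3092 on the FoxO4-labelled array and 3397 in the implied control, so the FoxO4-labelled array was near the control and the others lay above it. Its difference was 1.44 for FoxO1 minus FoxO4, with 1.20 in FoxO3 minus FoxO4. Col14a1 had a gene difference of 2.36 for FoxO1 minus FoxO3, but its brightest probe set, at 719, 807 and 1058 on the FoxO1-, FoxO3- and FoxO4-labelled arrays, gave -0.17.

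In this class 4 of the 9 genes were at least 2-fold higher for FoxO1 minus FoxO3 (44.4%, beside 21.3% of all genes) and 1 lower (11.1%, beside 17.4%). In FoxO1 minus FoxO4, 5 were higher (55.6%, beside 20.4%) and 0 lower, beside 16.9%. For FoxO3 minus FoxO4, 2 were higher (22.2%, beside 17.9%) and 0 lower, beside 18.6%. Only Col12a1, Col14a1 and Col16a1 of the 9 were above the median of all genes on any array, so most of these counts rest on dim signals.

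Among the other collagens, Col7a1 was high on the FoxO3-labelled array. The gene encodes the anchoring fibrils that hold skin to its underlying tissue, and its signal was 413 on the FoxO1-labelled array, 3595 on the FoxO3-labelled array, 811 on the FoxO4-labelled array and 626 in the implied control. The FoxO3-labelled array was above both others, with -3.12 (log2) for FoxO1 minus FoxO3 and 2.15 for FoxO3 minus FoxO4, from 1 probe set. Col17a1, a membrane-spanning collagen of skin, read 16.7, 499 and 21.2 on the FoxO1-, FoxO3- and FoxO4-labelled arrays, so only the FoxO3-labelled array was above the floor.

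Col18a1, a basement membrane collagen whose end piece is endostatin, was highest on the FoxO1-labelled array and lowest on the FoxO4-labelled array. One Col18a1 probe set read 26693, 7925 and 4804 on the FoxO1-, FoxO3- and FoxO4-labelled arrays and 8216 in the implied control, and the other 14281, 3355, 2265 and 6216. Both gave the same order, with gene differences of 1.92 (log2) for FoxO1 minus FoxO3 and 2.57 for FoxO1 minus FoxO4. Col8a1 and Col8a2, the short chains of type VIII, which vessel walls and the cornea hold, were also highest on the FoxO1-labelled array. Col8a2 read 3570 on the FoxO1-labelled array, 558 on the FoxO3-labelled array, 896 on the FoxO4-labelled array and 256 in the implied control. The brightest Col8a1 probe set read 23216, 2474, 10573 and 3829, a difference of 3.23 for FoxO1 minus FoxO3, while the median over its 3 probe sets was 0.84. Col25a1, a membrane-spanning collagen that muscle uses in innervation, had one probe set at 1266, 1771 and 1371 and another at 1800, 35.5 and 312 on the FoxO1-, FoxO3- and FoxO4-labelled arrays, so no direction is given for it. The Col10a1 signal, from the short chain of growth-plate cartilage, was 156, 49.9 and 486 on these arrays.

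Of the 11 genes in this mixed class, 4 were at least 2-fold higher for FoxO1 minus FoxO3 (36.4%, beside 21.3% of all genes) and 3 lower (27.3%, beside 17.4%). For FoxO1 minus FoxO4 the counts were 3 higher (27.3%, beside 20.4%) and 2 lower (18.2%, beside 16.9%). They were 3 higher (27.3%, beside 17.9%) and 2 lower (18.2%, beside 18.6%) for FoxO3 minus FoxO4.

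Taking each array against both others, 12 of the 42 genes were at least 2-fold above both on the FoxO1-labelled array (28.6%) beside 10.2% of all genes, and 0 were below both beside 7.94%. The 12 above both were Col1a1, Col1a2, Col2a1, Col4a6, Col8a2, Col9a3, Col11a1, Col14a1, Col18a1, Col20a1, Col24a1 and Col25a1. By their brightest probe set, 7 of the 12 were also 2-fold above both. Among these 7, Col2a1, Col8a2 and Col24a1 have 1 probe set each, so their value could not change. The genes of the 12 that did not stay above both were Col14a1 and Col25a1, which turned round, and Col4a6, Col9a3 and Col20a1, at 0.31, 0.12 and 0.05 (log2) for FoxO1 minus FoxO3. On the FoxO3-labelled array, 4 were above both (9.52%) beside 7.61% of all genes, namely Col7a1, Col13a1, Col17a1 and Col22a1. By its brightest probe set, at 1000, 231 and 76.5 on the FoxO1-, FoxO3- and FoxO4-labelled arrays, Col22a1 turned to 2.12 for FoxO1 minus FoxO3, against -1.51 by median. Below both there were 7 (16.7%) beside 9.51%, namely Col1a2, Col4a5, Col5a2, Col6a1, Col6a2, Col10a1 and Col11a2. For the FoxO4-labelled array, 3 were above both (7.14%) beside 7.13% of all genes and 3 below both (7.14%) beside 8.88%. The higher ones were Col10a1, Col11a2 and Col23a1, where Col23a1 turned to 2.47 (log2) in FoxO1 minus FoxO4 with its brightest probe set, and the lower ones Col6a5, Col16a1 and Col24a1. The median spread between the highest and lowest array was 1.84 (log2) over the 42 genes and 1.26 over all genes. By class this median spread was 2.68 for fibrillar genes, 0.79 for type IV, 1.44 for fibril-associated genes, 2.46 for type VI and 2.07 for the others. Of the 27 collagen genes with several probe sets, 16 had all of them going 1 way for FoxO1 minus FoxO3, 10 for FoxO1 minus FoxO4, with 14 in FoxO3 minus FoxO4. Over all 9012 genes with several probe sets these shares were 40.2%, 39.1% and 38.8%. A probe set below the floor on both arrays takes its direction from the unequal floors, so these counts are partly set by the floor.

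In all, 13 of the 42 genes were above the median of all genes on 0 arrays. Their gene signals ran from 81.2 to 453 on the FoxO1-labelled array, from 73.1 to 389 on the FoxO3-labelled array and from 77.3 to 376 on the FoxO4-labelled array. Among these 13, 2 were at least 2-fold higher and 2 lower for FoxO1 minus FoxO3, beside 21.3% and 17.4% of all genes. The counts were 4 and 0 for FoxO1 minus FoxO4, beside 20.4% and 16.9%, with 3 and 0 in FoxO3 minus FoxO4, beside 17.9% and 18.6%. These shares are of all genes, not of equally dim ones. A value at the floor is a bound, and 4, 4 and 9 collagen gene values lay at the floor on the FoxO1-, FoxO3- and FoxO4-labelled arrays.

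Collagen chains are hydroxylated and folded in the endoplasmic reticulum, trimmed outside the cell and crosslinked by lysyl oxidases. The shares of all genes higher and lower, given above, were 21.3% and 17.4% for FoxO1 minus FoxO3, 20.4% and 16.9% for FoxO1 minus FoxO4, with 17.9% and 18.6% in FoxO3 minus FoxO4. Of 27 such genes with probe sets, 10 (37.0%) were at least 2-fold higher for FoxO1 minus FoxO3 and 1 (3.70%) lower, with a median of 0.91 (log2). For FoxO1 minus FoxO4, 3 (11.1%) were higher and 4 (14.8%) lower with a median of -0.01, and for FoxO3 minus FoxO4, 1 (3.70%) was higher and 12 (44.4%) lower with a median of -0.84. The crosslinking enzyme gene Lox had gene signals of 10369 on the FoxO1-labelled array, 3567 on the FoxO3-labelled array, 36224 on the FoxO4-labelled array and 3191 in the implied control. Loxl1, a related oxidase, read 3544, 718, 1715 and 6170. Both were lowest on the FoxO3-labelled array, with -3.34 and -1.26 for FoxO3 minus FoxO4, although for FoxO1 minus FoxO4 Lox was at -1.80 by median and 0.00 by its brightest probe set. Pcolce2, an enhancer of procollagen trimming, was lowest on the FoxO1-labelled array, at 782, 2690, 2260 and 1032. P3h2, a prolyl hydroxylase that acts on type IV chains, read 92.3, 151, 740 and 261. Mia3, which loads collagen into transport vesicles, differed by -1.52 for FoxO3 minus FoxO4 by its median but by -0.26 by its brightest probe set.

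Of 17 measured genes for proteins that bind fibrils, 7 were at least 2-fold higher (41.2%) and 2 lower (11.8%) for FoxO1 minus FoxO3. The counts were 5 and 3 (29.4% and 17.6%) for FoxO1 minus FoxO4, with 1 and 8 (5.88% and 47.1%) in FoxO3 minus FoxO4. Relative to the implied control, 5 of the 17 (29.4%) were lower on the FoxO3-labelled array beside 18.6% of all genes. Fmod, a small proteoglycan that shapes fibrils, had gene signals of 995 on the FoxO1-labelled array, 177 on the FoxO3-labelled array, 4401 on the FoxO4-labelled array and 236 in the implied control. Lum, another of these proteoglycans, read 446, 81.8, 602 and 478, and Matn4 582, 91.1, 261 and 127. The proteoglycan gene Bgn had gene signals of 149833, 306, 122062 and 74917, and Ogn 41929, 221, 50764 and 6021. They had the largest differences of the list, at -8.64 and -7.85 (log2) for FoxO3 minus FoxO4. These 5 were lowest on the FoxO3-labelled array, while Dcn, a fibril-binding proteoglycan named here after its values were seen, was lowest on the FoxO1-labelled array, at 206, 787 and 800, against 2175 in the implied control.

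Partners of type IV collagen in the basement membrane differed both ways. Of 15 measured, 4 were at least 2-fold higher and 1 lower for FoxO1 minus FoxO3 (26.7% and 6.67%). The counts were 6 and 2 (40% and 13.3%) for FoxO1 minus FoxO4, with 5 and 4 (33.3% and 26.7%) in FoxO3 minus FoxO4. Nid2, a linker between laminin and type IV networks, read 18199 on the FoxO1-labelled array, 679 on the FoxO3-labelled array, 25325 on the FoxO4-labelled array and 5226 in the implied control. Sparc, which binds collagen and calcium, had gene signals of 22421, 2859, 37396 and 14792. These were low on the FoxO3-labelled array, where Col4a1 and Col4a2 were not. Lamb2, a laminin chain of the neuromuscular junction, was instead lowest on the FoxO4-labelled array, at 3200, 1884, 681 and 985. The laminin chain gene Lama4 differed by 2.40 (log2) for FoxO1 minus FoxO3 but by 0.53 with its brightest probe set. Nid1, the sister of Nid2, was at the floor of 81.2 on the FoxO1-labelled array, against 585 on the FoxO3-labelled array.

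Receptors for collagen differed both ways. Of 12 measured, 2 were at least 2-fold higher and 3 lower for FoxO1 minus FoxO3 (16.7% and 25%). The counts were 1 (8.33%) and 0 for FoxO1 minus FoxO4, with 1 and 3 (8.33% and 25%) in FoxO3 minus FoxO4. Mrc2, a receptor that takes up collagen fragments, had gene signals of 2363, 312 and 1587 on the FoxO1-, FoxO3- and FoxO4-labelled arrays and 1141 in the implied control. Antxr1, a membrane protein that binds collagen VI, had 2705, 778, 4008 and 2122, so both were lowest on the FoxO3-labelled array. Its relative Antxr2 had 1572, 3287, 2122 and 3369. Itgb1, the shared chain of collagen-binding integrins, differed by 1.52 (log2) for FoxO1 minus FoxO4 by median and by -0.93 with its brightest probe set, and Gp6, the platelet receptor, read 322, 646 and 288. Among 16 measured transcription factors linked to collagen genes or to connective tissue, 3 were at least 2-fold higher and 1 lower for FoxO1 minus FoxO3 (18.8% and 6.25%). The counts were 5 and 1 (31.2% and 6.25%) for FoxO1 minus FoxO4, with 3 and 3 (18.8% each, near the shares of all genes) in FoxO3 minus FoxO4. Mkx, a tendon regulator, read 481 on the FoxO1-labelled array and 930 on the FoxO3-labelled array, and on the FoxO4-labelled array it was at the floor of 77.3. The differences of Nfatc4 and Prrx1 shrank with the brightest probe set, to 0.83 against 2.85 by median for FoxO1 minus FoxO3 in Nfatc4 and to 0.14 against 2.34 for FoxO1 minus FoxO4 in Prrx1. Sox9, the cartilage regulator, was lowest on the FoxO4-labelled array, at 742, 832 and 236. Sp1, a factor that binds GC boxes, read 317, 246 and 556, and its probe sets disagreed for FoxO1 minus FoxO3, where the brightest gave -1.79 and the median 0.36.

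**Figure D4:**
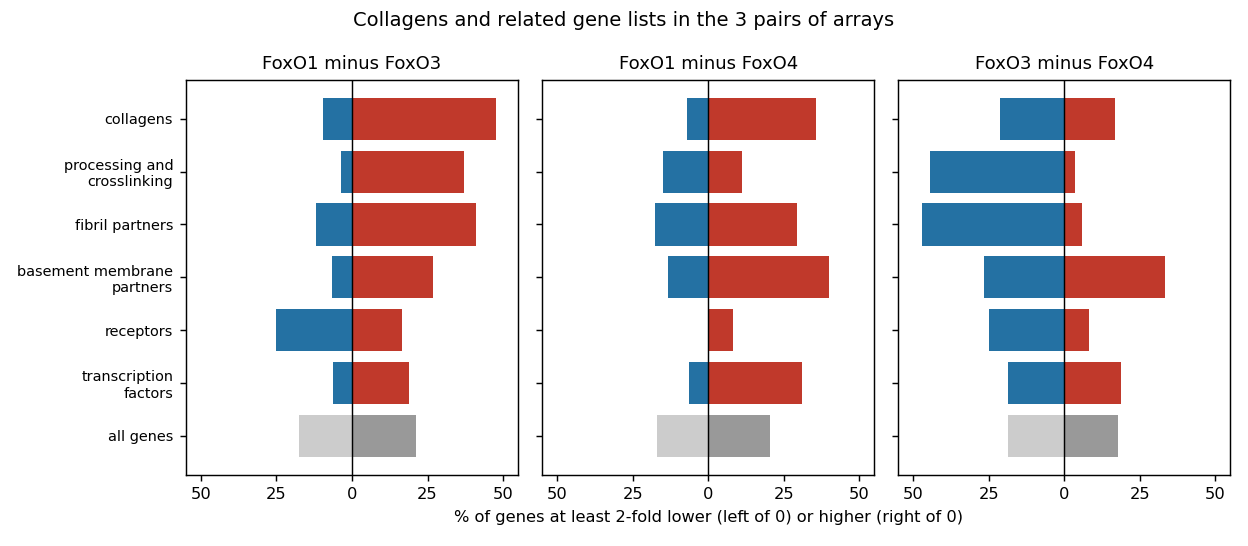
Share of genes (%) at least 2-fold higher (right of 0) or lower (left of 0) in each pair of arrays, for the collagens, the 5 related gene lists and all genes (grey). The collagens reach 47.6% higher for FoxO1 minus FoxO3, and the processing genes and fibril partners reach 44.4% and 47.1% lower for FoxO3 minus FoxO4.

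Markers of the cells these lines could hold were read beside the collagens. Of 6 myoblast markers, 5 were above the median of all genes on at least 1 array, and Pax7 was not. The summed signal of the 6 was 43217, 49134 and 53609 on the FoxO1-, FoxO3- and FoxO4-labelled arrays, against 94742 in the implied control. Chrna1 alone gave 33644, 33433 and 40840 of these sums, against 67288 in the implied control. Myod1 and Des were lowest on the FoxO4-labelled array, at 235 and 384, against 1671 and 3946 in the implied control. Myf5, Cdh15 and Pax7 were instead lowest on the FoxO1-labelled array, at 1056, 4761 and 101, against 2601, 19043 and 193 in the implied control. Fibroblast markers, of which 5 of 8 were above that median on an array, summed to 6059, 4085 and 5090, against 5847 in the implied control, and 0 of them were at the floor on any array. Osteoblast markers (2 of 5 above the median) summed to 2590, 2511 and 2562, against 2731, and chondrocyte markers (4 of 7) to 3232, 3035 and 2106, against 3072. Endothelial markers (3 of 6) summed to 2452, 1563 and 1886, against 1882, and 0, 3 and 2 of them were at the floor on the FoxO1-, FoxO3- and FoxO4-labelled arrays. Glial markers (1 of 2 above the median) summed to 276, 672 and 513, against 384. The fibroblast sum was highest on the FoxO1-labelled array and lowest on the FoxO3-labelled array, but not all its members shared that order. Mfap5 did, at 1058, 530 and 761 on the FoxO1-, FoxO3- and FoxO4-labelled arrays, as did Cd34, at 1788, 641 and 688. Pdgfra, below the median of all genes on every array, did by gene value, at 403, 127 and 281. Its brightest probe set put the FoxO3-labelled array highest instead, with -0.26 (log2) for FoxO1 minus FoxO3 and 0.78 for FoxO3 minus FoxO4. Lum was lowest on the FoxO3-labelled array, Dcn and Dpt on the FoxO1-labelled array, and Thy1 and Fbln1 on the FoxO4-labelled array. The part of these cells in the collagen differences was not tested.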

How the data were processed

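One Affymetrix mouse array was read per C2C12 line, each named by its label. The deposited signal table holds an intensity per probe set, scaled by the authors with GCOS, per the submitters' processing notes. Neither its version nor its settings were given in the sources used here. A second deposited table lists log2 ratios against control RNAi, per the file headers. Its change calls come in 5 sorted blocks for every line although there is a single identifier column. Across probe sets, the ratio correlated with the array's own log2 signal minus the mean of the others at r = 0.58 under the FoxO1 label, -0.0012 under the FoxO4 label and -0.012 under the FoxO3 label. The last 2 ratio columns were therefore not read per probe set. Ratios are rounded to 0.1, which carries over to the implied control.

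Probe sets were named from the platform annotation. The calculations were tested on simulated data. Having 1 array per line limits the precision. Collagen genes above the median of all genes on an array could be given in full and the others by range. Genes named from related lists were up to 5 members with the largest difference in any pair among those above that median. Members, classes and lists were chosen with earlier results of these data known. Col6a6, Col21a1 and Col28a1 had no probe set here and were not analysed. Promoter windows came from RefSeq (GRCm38.p6), matched by symbol. Alternatives covered the gene summary, probe set choice, scaling, floor, filter and fold threshold. The software was pandas 2.3.3 and numpy 2.4.6 under Python 3.11.15, with matplotlib 3.10.9 for figures.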

Additional observations from a re-analysis of the deposited data

How the results depend on the processing

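The counts of collagen genes at least 2-fold apart were recomputed under 8 alternatives for control RNAi and 10 for each pair of arrays, and under 8 for the implied control, and the cause of each change was not tested unless the alternative fixes it. For FoxO1 minus FoxO3 the 20 genes higher became 11 at 4-fold. The 4 lower became 7 with the brightest probe set (beside 18.1% of all genes) and 1 with the floor at the 40th percentile (beside 7.79%). They became 2 among genes above the median on an array and 2 at 4-fold. For FoxO1 minus FoxO4 the 15 higher became 9 at 4-fold. The 3 lower became 5 with the brightest probe set (beside 16.4%), after quantile normalization (beside 18.7%) and with arrays centred on their median. They became 1 with the higher floor (beside 7.17%), 6 at 1.5-fold and 1 at 4-fold. For FoxO3 minus FoxO4 the 7 higher became 12 with the brightest probe set, 2 with the higher floor, 4 among genes above the median and 2 at 4-fold, and the 9 lower became 16 at 1.5-fold and 4 at 4-fold. For FoxO1 over control RNAi the 18 higher became 9 at 4-fold. The 5 lower became 3 with both signals floored (beside 15.4% of all genes), 2 among genes above the median and 0 at 4-fold. Relative to the implied control, the 10 higher on the FoxO3-labelled array became 5 with the higher floor and 2 at 4-fold, and the 7 lower became 12 at 1.5-fold and 4 at 4-fold. On the FoxO4-labelled array the 12 higher became 2 at 4-fold, and the 8 lower became 2 with the higher floor, 5 among genes above the median and 2 at 4-fold. Shares of all genes at 1.5-fold and 4-fold, among genes above the median, and under alternatives for the implied control are not given here. Centring each array on its median gave a median of all genes of -0.11 (log2) for FoxO1 minus FoxO3, against 0.14 before, where 19 collagens were higher beside 16.6% of all genes and 5 lower beside 22.6%. For FoxO1 minus FoxO4 it gave -0.14, against 0.07, with 13 higher beside 16.5% and 5 lower beside 21.2%.

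Single genes above the median of all genes on an array gave 94 differences of at least 2-fold. Of their 564 values under alternatives, 555 did not turn to the opposite direction. Many of these could not turn. Genes with 1 probe set keep their value under the probe set alternatives, and centring the ratio on its median of 0 changes nothing. The 555 include Col17a1 over control RNAi, which went from -1.7 to 0 with both signals floored. With the brightest probe set, Col14a1 turned to -0.17 and -0.56 for FoxO1 minus FoxO3 and FoxO1 minus FoxO4 and to -0.60 over control RNAi, Col25a1 to -0.48, -0.12 and -1.10, and Col23a1 to 2.47 for FoxO1 minus FoxO4. Col12a1 for FoxO1 minus FoxO3 turned to -0.034 with plain probe sets, which leave out 1 of its bright ones. Col24a1 for FoxO3 minus FoxO4 turned to -0.026 with the higher floor. No paired analysis was possible because each group has 1 array.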
